A study of Mus musculus with 12 samples.

Results

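Entpd5, Fitm1, Pir, B3galt1 and 9130409I23Rik were 5 of the 5856 genes measured in the livers of mice with graded Nrf2 activity. They were picked because their mRNA was low in Nrf2-null liver and because they lie outside the families of drug-metabolizing enzymes and transporters, so that their low values without Nrf2 are how they were chosen and not a result. All 9 probe sets that carry one of these symbols alone were found, 5 of them for Entpd5 and 1 for each of the others, and all 5 genes had passed the authors' filter on dim probe sets. The question asked of them was which also rose when Keap1 was lost and which did not.

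Liver RNA came from untreated male C57BL/6 mice, 8 weeks old, with 3 mice and 3 arrays for each of 4 genotypes. Nrf2-null mice lack Nfe2l2, the gene of Nrf2, in every cell and had been backcrossed to C57BL/6. Keap1-knockdown (Keap1-KD) mice carry a loxP-flanked Keap1 allele that lowers Keap1 in the whole body, on the same background. Keap1-hepatocyte knockout (Keap1-HKO) mice are Keap1-KD mice crossed with AlbCre+ mice, whose Cre is driven by the albumin promoter in hepatocytes, and they carry the knockdown allele in all other cells as well. Wild-type mice were the controls.

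Nrf2 is a transcription factor that Keap1 holds in the cytoplasm and hands over for degradation. When Keap1 is lost or modified by electrophiles, Nrf2 enters the nucleus, pairs with small Maf proteins and binds antioxidant response elements near its target genes. In liver it is best known for genes of glutathione synthesis, quinone reduction and conjugate export. Among the 5 genes, Entpd5 encodes a nucleoside diphosphatase of the endoplasmic reticulum that removes UDP formed while glycoproteins fold. Fitm1 encodes a membrane protein of the endoplasmic reticulum that promotes the formation of lipid droplets and is best known from skeletal muscle and heart. Pir encodes pirin, an iron-binding nuclear protein that binds Bcl3 and NFI factors. B3galt1 encodes a Golgi galactosyltransferase that lengthens sugar chains. 9130409I23Rik is known only by the name of its RIKEN clone.

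The core of the antioxidant response element, TGACNNNGC, was searched on both strands of the RefSeq promoters (GRCm38.p6), from 250 bases before to 50 bases after each annotated start, and no other motif was searched. It stood in the promoter window of 4 of the 5 genes, whereas 14.0% of 27025 genes in the RefSeq table, 17.5% of the 4822 measured genes with a promoter there and 7 of 20 measured genes of a list of known Nrf2 targets (35.0%) held it. Upstream of the start, Pir held 1 match, 9130409I23Rik held 3 and Fitm1 held 1. B3galt1 held 1 that crosses its first annotated start and none at its other start, and Entpd5 held none. A match of these letters is a description of the window and not a measured binding site. Stretches upstream of or across the start that hold matches are shown so that the elements can be compared with the mRNA values that follow. They are written 5′ to 3′ on the gene's strand, with each match in capitals, and positions are counted from the start with −1 as the base before it.
Pir, −250 to −1, chrX:164269181-164269430, + strand: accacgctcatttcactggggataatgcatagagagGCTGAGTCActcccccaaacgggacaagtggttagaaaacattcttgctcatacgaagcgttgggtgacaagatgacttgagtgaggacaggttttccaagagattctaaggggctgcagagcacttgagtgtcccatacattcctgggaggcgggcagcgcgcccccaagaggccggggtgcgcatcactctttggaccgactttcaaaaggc
9130409I23Rik, −250 to −1, chr1:181050987-181051236, + strand: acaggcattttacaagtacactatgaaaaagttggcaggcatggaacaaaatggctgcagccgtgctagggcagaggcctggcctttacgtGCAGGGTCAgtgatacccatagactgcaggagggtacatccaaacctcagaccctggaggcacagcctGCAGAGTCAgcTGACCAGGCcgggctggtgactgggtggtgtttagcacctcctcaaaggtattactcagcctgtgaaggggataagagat
Fitm1, −250 to −131, chr14:55575424-55575543, + strand: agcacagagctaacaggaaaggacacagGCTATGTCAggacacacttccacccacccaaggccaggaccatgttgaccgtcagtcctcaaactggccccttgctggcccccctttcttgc
B3galt1, −60 to 4, chr2:67565629-67565692, + strand: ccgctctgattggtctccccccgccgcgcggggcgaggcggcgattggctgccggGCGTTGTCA
Read on the opposite strand, the upstream element of Pir is TGACTCAGC, from −214 to −206. The elements of 9130409I23Rik are TGACCCTGC and TGACTCTGC on the opposite strand and TGACCAGGC on the gene's own strand, the last 2 lying close together between −91 and −72. The Fitm1 element is TGACATAGC, from −222 to −214, and the B3galt1 element is TGACAACGC, from −5 to 4.

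Array values are given on the log2 scale of the authors' gcRMA, and a difference is a difference of log2 means. The targeted genes followed the labels. Nfe2l2 in Nrf2-null mice differed from wild-type by −6.55 on the log2 scale (standard error 0.17, limma adjusted p = 1.21e-08), and Keap1 differed by −2.16 in Keap1-KD mice and by −4.51 in Keap1-HKO mice. These groups lay under an intensity of 100, so that the wild-type level was at least 4.77-fold higher for Nfe2l2 and at least 2.33-fold higher for Keap1. Transcripts of 9 hepatocyte markers had a median of 14.96 to 15.59 on the 12 arrays, with the 3 lowest medians in Keap1-HKO mice. Skeletal muscle transcripts stood on Wild-type replicate 2 and Keap1-HKO replicates 2 and 3, and exocrine pancreas transcripts on the latter 2. Keap1-HKO replicate 1 and Nrf2-null replicate 1 lay farther from the median of their genotype (0.785 and 0.487, averaged over genes) than the other arrays, at 0.063 to 0.177. Every Keap1-HKO array thus either held muscle and pancreas transcripts or lay far from the median of its genotype. For the 5 genes, calls that rest on these arrays are given with and without them.

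**Figure D1:**
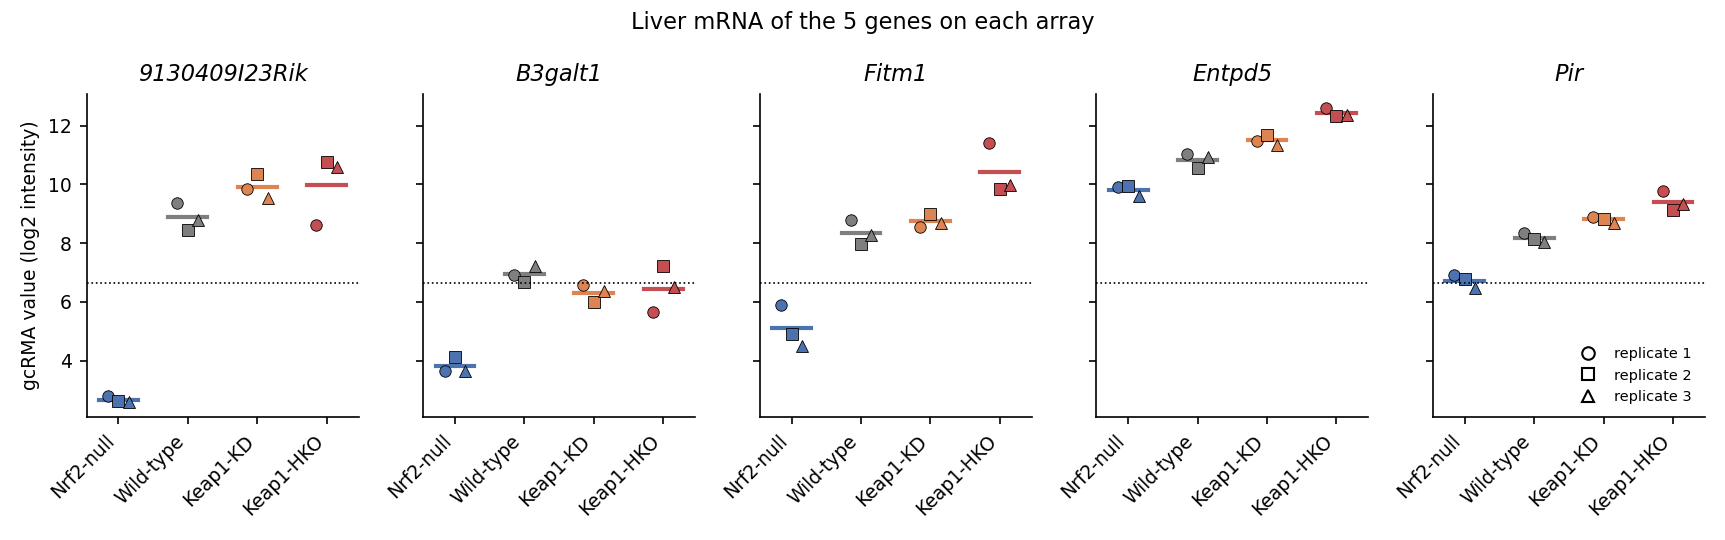
Each panel plots the gcRMA value (log2 intensity, vertical axis) of 1 gene on the 12 arrays, grouped by genotype, with a symbol for each replicate number, a bar at the mean of 3 mice, and a dotted line at an intensity of 100 (6.64). Entpd5 and Pir climb from wild-type to Keap1-HKO mice, while only the wild-type mean of B3galt1, 6.94, lies above the dotted line.

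In Keap1-HKO mice Entpd5, Fitm1 and Pir rose against wild-type, to 3.02-fold, 4.16-fold and 2.35-fold of the wild-type level. The Fitm1 fold leans on Keap1-HKO replicate 1, at 11.42 against 9.83 and 9.96 on replicates 2 and 3. 9130409I23Rik and B3galt1 did not pass the test, with differences of 1.11 and −0.49. Thus 3 of the 5 genes were called higher at a limma adjusted p under 0.05, where 2.1% of all genes were, and the same 3 had all Keap1-HKO arrays above wild-type, as 12.7% of all genes did. In Nrf2-null mice each of the 5 had all 3 arrays below wild-type, which follows from the choice and held for 8.76% of all genes. In Keap1-KD mice, where Keap1 mRNA was reduced but not lost, 0 of the 5 were called by limma, against 0.0683% of all genes, while 2 (Entpd5 and Pir, both higher) had an unadjusted p under 0.05, as 1.42% of all genes did in that direction, and the same 2 passed Duncan's test, as 1.5% of all genes did. Wild-type arrays served both in these comparisons and in the choice of the genes. Keap1-HKO against Keap1-KD mice is the comparison that used neither Nrf2-null nor wild-type arrays for its difference, and there 1 of the 5, Entpd5, was called higher, against 0.786% of all genes. In tissue RNA, more RNA per cell and more cells that hold the transcript cannot be told apart.

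**Figure D2:**
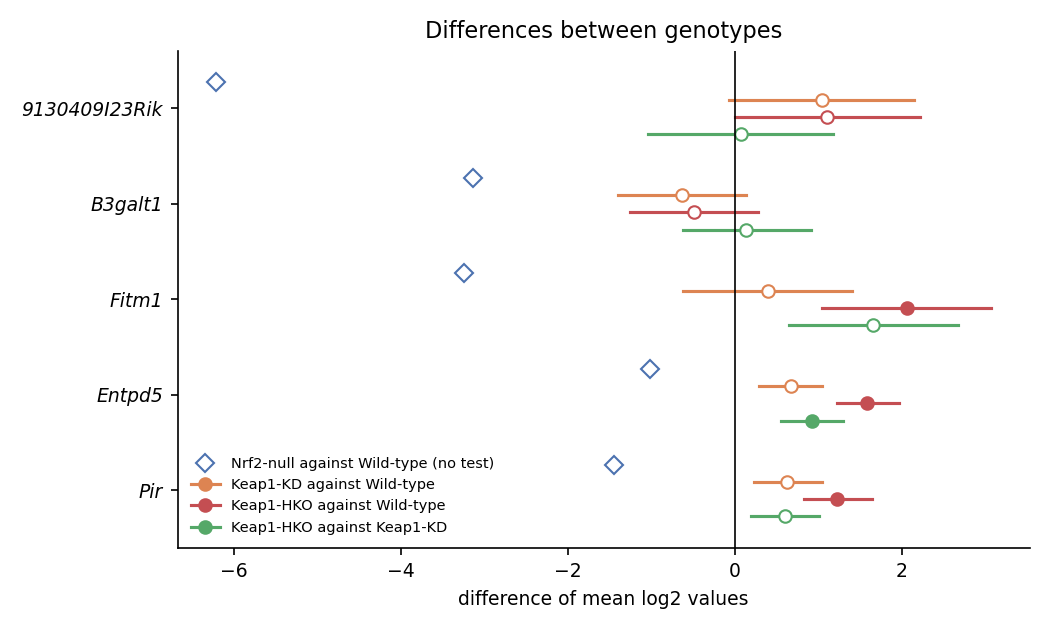
Differences of mean log2 values between genotypes (horizontal axis) for the 5 genes, with 95% confidence intervals from limma as lines. Filled circles mark an adjusted p under 0.05, open circles the rest, and open diamonds the Nrf2-null differences that chose the genes and carry no test. Filled circles stand at 2.06, 1.59 and 1.23 for Keap1-HKO against wild-type mice in Fitm1, Entpd5 and Pir, and at 0.93 for Keap1-HKO against Keap1-KD mice in Entpd5.

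Entpd5, the nucleoside diphosphatase, showed a graded pattern. Its values were 9.90, 9.94 and 9.60 in Nrf2-null mice and 11.03, 10.54 and 10.93 in wild-type mice. They were 11.49, 11.67 and 11.33 in Keap1-KD mice and 12.59, 12.33 and 12.35 in Keap1-HKO mice. Every Keap1-KD array lay above every wild-type array and below every Keap1-HKO array, an order without overlap that 1.4% of all genes had. The lower Nrf2-null values are those by which the gene was chosen. Mean un-logged intensity differed from wild-type by −50.9% in Nrf2-null mice, 58.0% in Keap1-KD mice and 199.9% in Keap1-HKO mice.

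The Keap1-HKO difference of Entpd5 was 1.59 (standard error 0.17, 95% confidence interval 1.22 to 1.97, limma adjusted p = 0.000585). It ranked 87th from the top among all genes and was called under 26 of 26 alternative settings. In Keap1-KD mice the difference was 0.67 (0.29 to 1.04), with an unadjusted p of 0.00266 and an adjusted p of 0.778. Between Keap1-HKO and Keap1-KD mice it was 0.93 (0.55 to 1.30, limma adjusted p = 0.0281). That last call ended when 1 array was left out in 6 of 12 cases, with adjusted p between 0.0538 and 0.137 for Wild-type replicate 3, Keap1-KD replicates 1, 2 and 3 and Keap1-HKO replicates 2 and 3, and the difference stayed between 0.84 and 1.01.

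The 4 other probe sets of Entpd5 gave the same order of genotype means. In Nrf2-null mice their differences from wild-type were −1.44 for 1417383_at (against Nrf2-null values under an intensity of 100), −1.24 for 1417384_at, −1.24 for 1433763_at and −1.05 for 1451765_a_at, and 1417382_at, which stood for the gene, had −1.02. With each probe set fitted on its own, the Keap1-HKO differences of the 5 ran from 1.40 to 1.70 (limma adjusted p 0.000235 to 0.00168 over 8554 probe sets) and those between Keap1-HKO and Keap1-KD mice from 0.79 to 1.21 (0.00465 to 0.0413). All 5 were called in both comparisons, and none in Keap1-KD mice, where differences were 0.42 to 0.67. Probe sets of 1 gene were read on the same 12 arrays and are not replicates.

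**Figure D3:**
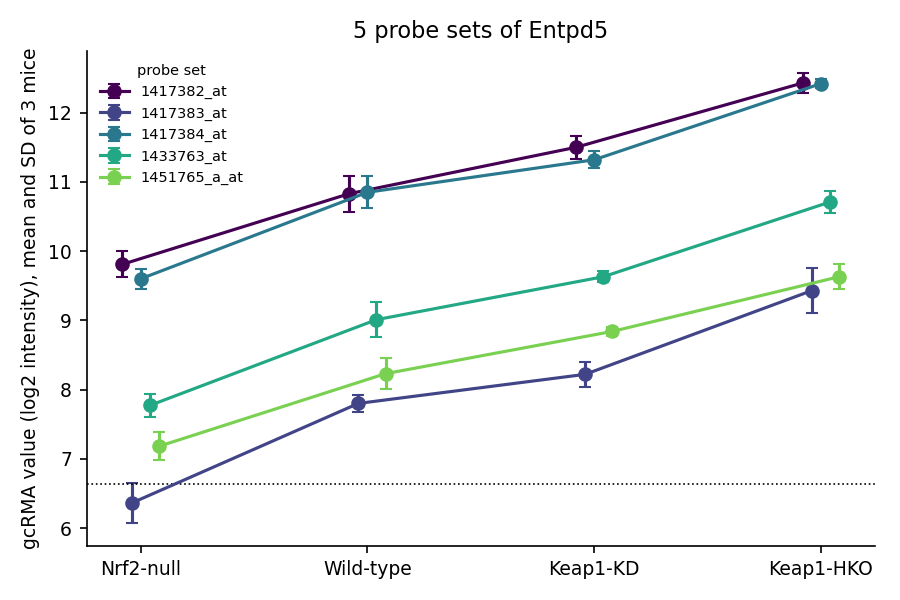
Mean and SD of 3 mice (vertical axis, log2 intensity) of the 5 Entpd5 probe sets in the 4 genotypes, each line a probe set, with a dotted line at an intensity of 100 (6.64). Every line rises from left to right, and 1417383_at starts under the dotted line, at 6.36 in Nrf2-null mice.

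Pir, the gene of pirin, followed the same order. Values were 6.92, 6.78 and 6.47 in Nrf2-null mice, the last of them under an intensity of 100, and 8.33, 8.15 and 8.05 in wild-type mice. They were 8.90, 8.83 and 8.69 in Keap1-KD mice and 9.76, 9.13 and 9.34 in Keap1-HKO mice. Pir was the only other of the 5 genes whose wild-type, Keap1-KD and Keap1-HKO arrays rose without overlap. The Keap1-HKO difference was 1.23 (standard error 0.18, 95% confidence interval 0.83 to 1.64, limma adjusted p = 0.00481) and was called in 25 of 26 alternatives. The exception was the fit of only the 2 genotypes compared, where the adjusted p was 0.0821. In Keap1-KD mice Pir differed by 0.63 (0.23 to 1.04, unadjusted p = 0.00588, limma adjusted p = 1), and between Keap1-HKO and Keap1-KD mice by 0.60 (0.20 to 1.01, adjusted p = 0.184). Both differences had all 3 arrays above those of the other genotype, which held for 7.02% and 9.22% of all genes in these comparisons.

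Fitm1, the lipid droplet gene, rose in Keap1-HKO mice. Nrf2-null values were 5.89, 4.90 and 4.51, all under an intensity of 100, and wild-type values 8.80, 7.97 and 8.26. Wild-type intensity was therefore at least 3.35-fold higher than in Nrf2-null mice, the mean un-logged wild-type intensity over 100. Keap1-KD values of 8.53, 9.0 and 8.69 overlapped with wild-type, and Keap1-HKO values of 11.42, 9.83 and 9.96 lay above all other arrays. The Keap1-HKO difference was 2.06 (standard error 0.46, 95% confidence interval 1.04 to 3.07, limma adjusted p = 0.0332) and that from Keap1-KD mice 1.66 (0.65 to 2.67, adjusted p = 0.141). In Keap1-KD mice Fitm1 differed from wild-type by 0.40 (−0.62 to 1.41). The Fitm1 call in Keap1-HKO mice was the least stable of the 3. It held in 18 of 26 alternatives, with adjusted p from 0.000796 to 0.169, and was lost in the fit of only the 2 genotypes compared (0.169) and without Nrf2-null replicate 2 (0.0542), Wild-type replicates 1 (0.0602), 2 (0.144) or 3 (0.123), or Keap1-KD replicates 1 (0.0558), 2 (0.056) or 3 (0.0607), with a difference of 1.55 to 2.34 whichever array was left out. The lowest difference, 1.55, came without Keap1-HKO replicate 1.

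Because Fitm1 is known from skeletal muscle, its values were set beside 13 measured skeletal muscle genes of 17 listed, among them Acta1, Ckm and Myh1. Their median was 10.33 on Wild-type replicate 2, 10.75 on Keap1-HKO replicate 2 and 9.44 on Keap1-HKO replicate 3, and between 2.31 and 2.93 on the 9 other arrays. On those 9 arrays 12 of the 13 lay under an intensity of 100. Their summed intensity ranged from 215 to 405 in Nrf2-null, 221 to 26991 in wild-type, 348 to 484 in Keap1-KD and 442 to 37374 in Keap1-HKO mice. Fitm1 was highest on Keap1-HKO replicate 1, where muscle transcripts were near the floor, and lowest among wild-type arrays on Wild-type replicate 2, where they were high. Whether muscle tissue added to the Fitm1 values was not tested. Without the 3 muscle-positive arrays the Keap1-HKO difference of Fitm1 was 2.88 (adjusted p = 0.0145). That fit keeps Keap1-HKO replicate 1, the array farthest from the median of its genotype, as the lone Keap1-HKO array, assumes that it varies like the other genotypes, and called 38.5% of all genes. Entpd5 and Pir differed by 1.61 and 1.57 there, and B3galt1 by −1.42. B3galt1 passed the authors' filter through wild-type mice alone, so that a lower value follows from the filter.

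**Figure D4:**
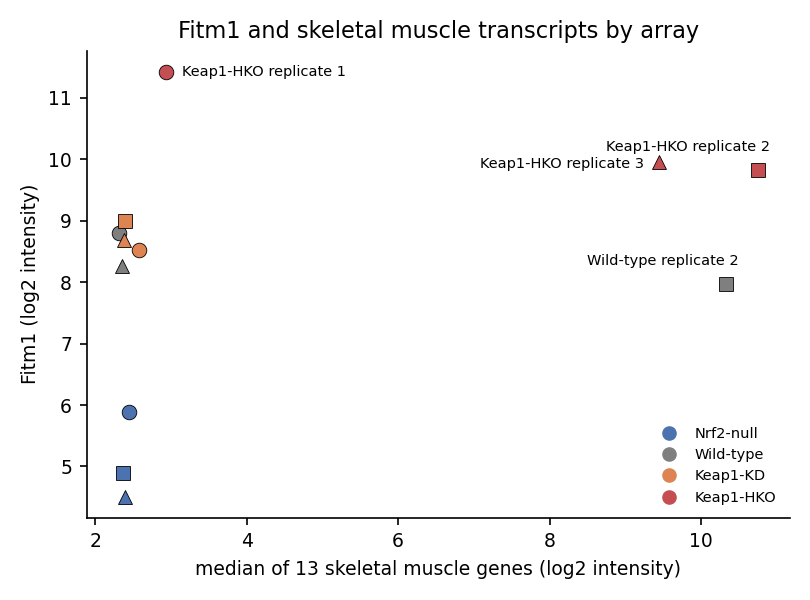
Fitm1 (vertical axis, log2 intensity) against the median of 13 skeletal muscle genes (horizontal axis, log2 intensity) on the 12 arrays, coloured by genotype. The 3 arrays at the right hold muscle transcripts, and the highest Fitm1 value, 11.42, stands at the left at a muscle median of 2.93.

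Nrf2-null values of 9130409I23Rik were 2.79, 2.62 and 2.58, near the floor of the data at 2.29, and wild-type values 9.37, 8.45 and 8.79, so that wild-type intensity was at least 4.85-fold higher than in Nrf2-null mice. Keap1-KD values of 9.85, 10.35 and 9.54 all lay above wild-type, a difference of 1.04 (standard error 0.50, 95% confidence interval −0.07 to 2.15, unadjusted p = 0.063, limma adjusted p = 1). It was the 19th highest difference of all genes in that comparison.

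In Keap1-HKO mice 1 array decided the outcome for 9130409I23Rik. Values were 8.60, 10.76 and 10.58, with Keap1-HKO replicate 1 within the wild-type range and the other 2 arrays above every wild-type value. The difference was 1.11 (standard error 0.50, 95% confidence interval 0.00 to 2.22, limma adjusted p = 0.267). Without Keap1-HKO replicate 1 it was 1.80 (adjusted p = 0.00601), and 1.80 (0.00423) when Nrf2-null replicate 1 was left out as well. Without the 3 arrays that hold muscle transcripts, which leaves Keap1-HKO replicate 1 alone, it turned to −0.48 (0.294). Between Keap1-HKO and Keap1-KD mice the difference was 0.07 (−1.04 to 1.18, adjusted p = 0.949), from −0.32 to 0.76 as single arrays were left out. Both kinds of array quality weights called the gene higher in Keap1-HKO than in wild-type mice, at 1.78 (adjusted p = 0.0353) and 1.71 (0.00122).

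B3galt1, the galactosyltransferase, passed the authors' filter through wild-type mice alone, the one genotype with a mean above an intensity of 100, so that means below wild-type in the other genotypes follow from the filter. Nrf2-null values were 3.66, 4.12 and 3.66 and wild-type values 6.91, 6.68 and 7.23, a mean intensity of 14.2 against 124 and a bound of at least 1.24-fold higher in wild-type mice. Keap1-KD values of 6.56, 6.01 and 6.36 all lay below wild-type (as for 8.21% of all genes) and under an intensity of 100, and Keap1-HKO values of 5.64, 7.21 and 6.50 overlapped with wild-type, 2 of them under 100. The difference was −0.63 in Keap1-KD mice (standard error 0.34, 95% confidence interval −1.40 to 0.13, limma adjusted p = 1) and −0.49 in Keap1-HKO mice (−1.25 to 0.28, adjusted p = 0.437). These intervals end at 0.13 and 0.28, but with the filter favouring lower means they cannot show whether B3galt1 rises when Keap1 is lost. Keap1-HKO and Keap1-KD mice differed by 0.14 (−0.62 to 0.91, adjusted p = 0.831). Without the arrays that hold muscle transcripts the Keap1-HKO difference was −1.42 (adjusted p = 0.0185), which rests on Keap1-HKO replicate 1 alone, and without Keap1-HKO replicate 1 it was −0.08 (0.945).

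B3galt1 shares chromosome 2 with Nfe2l2, the gene disrupted in Nrf2-null mice, so the genes around both were examined in gene order as given by RefSeq. Between B3galt1 and Nfe2l2 lie 164 annotated genes, of which 22 were measured, and 164 more on each outer side added 15 and 23 measured genes. Of these 60 neighbours 0 were called by limma in Nrf2-null against wild-type mice, where 0.41% of all genes were, and 1 (Gpd2) had an unadjusted p under 0.05 and passed Duncan's test, which 6.92% and 6.78% of all genes did. The 3 Nrf2-null arrays lay outside the wild-type range for 10 neighbours, or 16.7%, against 20.8% of all genes. Of these 10 neighbours 7 were lower and 3 higher, whereas of the 1219 such genes among all genes 513 were lower. The median difference of the neighbours was −0.17 and that of all genes 0.02. Among the 22 genes between them, differences ran from −0.74 to 0.46, with Ubr3 (−0.31) and Gpr155 (−0.60) lower and Mettl8 (0.34) higher on all 3 arrays. B3galt1 was chosen for its low Nrf2-null value and Nfe2l2 is the disrupted gene, so that neither was set against these neighbours. The lowest value outside the interval, −2.48 for the muscle gene Ttn, came from Wild-type replicate 2, where Ttn read 9.80 against 2.29 on the other 2 wild-type arrays. Whether this stretch of the chromosome is of C57BL/6 origin in the Nrf2-null mice was not tested.

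**Figure D5:**
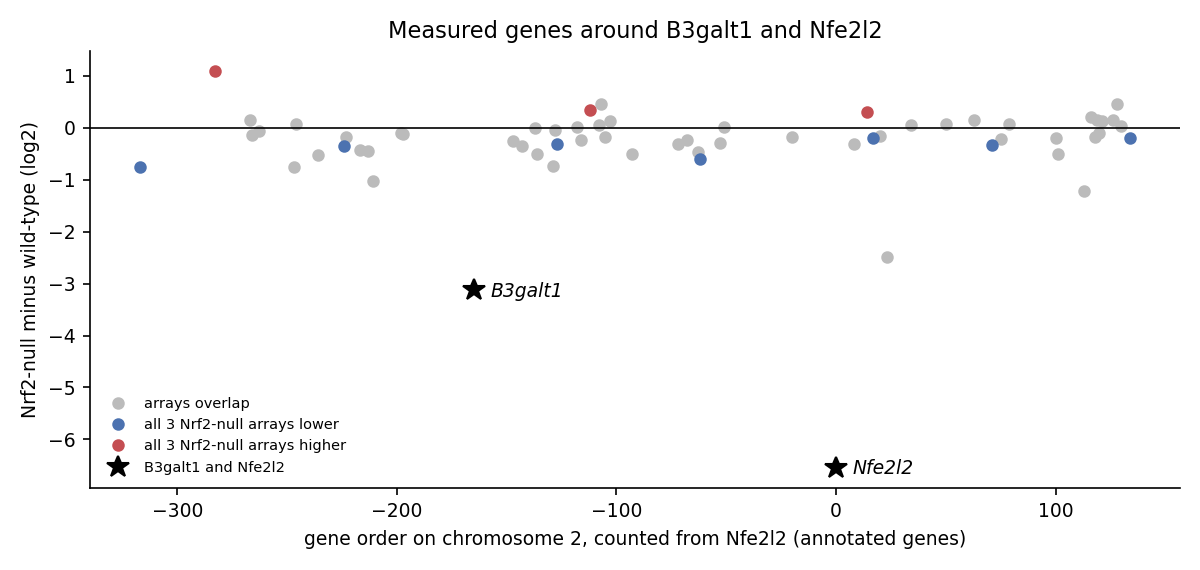
Nrf2-null minus wild-type difference (vertical axis, log2) of measured genes on chromosome 2 by gene order counted from Nfe2l2 (horizontal axis, in annotated genes), each point a gene. The 60 neighbours lie between −2.48 and 1.10. The stars mark B3galt1, chosen for its low value, and the disrupted Nfe2l2, at −3.13 and −6.55 against Nrf2-null values under an intensity of 100.

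Neighbours of the other genes were read in the same way, with 10 measured genes on each side and 18 in all for Pir. In Nrf2-null mice 0 of them were called by limma around any of the 4. The measured gene next to 9130409I23Rik, with 0 annotated genes between them, was Ephx1, the microsomal epoxide hydrolase and a known Nrf2 target. Ephx1 read 11.35, 11.01 and 10.86 in Nrf2-null mice and 13.04, 11.98 and 12.46 in wild-type mice, followed by 13.33, 13.50 and 13.21 in Keap1-KD mice and 14.51, 14.06 and 14.07 in Keap1-HKO mice. Its difference was −1.42 in Nrf2-null mice (limma adjusted p = 0.0508) and 1.72 in Keap1-HKO mice (0.00481). Keap1-HKO replicate 1, the lowest array of its genotype for 9130409I23Rik, was the highest for Ephx1.

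Fitm1 lies between Dcaf11 and Psme1, again with 0 annotated genes between, and these differed by 0.05 and 0.75 in Keap1-HKO mice (limma adjusted p = 0.849 and 0.193) against 2.06 for Fitm1. In Keap1-HKO mice 1 of the 20 measured neighbours of 9130409I23Rik (Ephx1), 1 of 20 of Fitm1 (Psmb5, a proteasome subunit, 0.84, adjusted p = 0.0409), 1 of 18 of Pir (Ctps2, a CTP synthase, 0.80, adjusted p = 0.0135) and 0 of 20 of Entpd5 were called higher, beside the 2.1% of all genes. Other neighbours of these 4 genes were not called in that comparison.

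Over the 12 arrays, Fitm1, Entpd5 and Pir tracked each other, with Pearson's r of 0.98 for Fitm1 and Pir, 0.97 for Entpd5 and Pir and 0.95 for Fitm1 and Entpd5. B3galt1 had r of 0.92 with 9130409I23Rik but 0.66 to 0.75 with the 3 genes that rose. All of these were chosen for low Nrf2-null values, which raises r among them, so that r is only a description. The gene most like Entpd5 was Ephx1 (r = 0.988), followed by Tex2 (0.985) and the glutathione transferase Gstm3 (0.985). For Pir it was the efflux transporter Abcc3 (0.985), followed by the lysosomal hexosaminidase Hexa (0.984) and Gstm3 (0.983), and for Fitm1 Pir itself (0.980), Hexa (0.979) and the aldo-keto reductase Akr1a1 (0.977).

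9130409I23Rik was most like the glucuronosyltransferases Ugt2b36 (r = 0.992) and Ugt2b35 (0.982) and the cytochrome P450 Cyp2c50 (0.971). From Nrf2-null through wild-type and Keap1-KD to Keap1-HKO mice, Ugt2b36 averaged 13.32, 14.34, 14.58 and 14.63, Ugt2b35 10.40, 12.69, 13.23 and 13.56, and Cyp2c50 14.02, 14.88, 14.94 and 15.02. Of the 3, Ugt2b35 was called higher in Keap1-HKO than in wild-type mice (0.87, limma adjusted p = 0.0481). B3galt1 was most like the complement regulator Cd59a (0.936), Nfe2l2 itself (0.933) and the autophagy gene Atg5 (0.926). Cd59a averaged 7.81, 9.53, 9.43 and 9.17 in the same order, differing from wild-type by −1.72 in Nrf2-null mice and by −0.36 in Keap1-HKO mice. Genes found by likeness follow the pattern of a member through that choice, low Nrf2-null values included. Their differences and calls are therefore only a description. Nfe2l2 mRNA, at 8.90 in wild-type mice, was 8.19 in Keap1-HKO mice, a difference of −0.70 (limma adjusted p = 0.048).

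Lists of related genes were set beside these values. The lists were chosen with earlier results of these data known, so that their counts and medians are only a description. Of 25 measured Nrf2 targets, 19 were called higher in Keap1-HKO mice, where 2.1% of all genes were, and 0 lower. Their median difference was 1.74 (all genes −0.01). Cbr3 and Gpx2 had passed the authors' filter through Keap1-HKO mice alone. Of the 23 others 17 were called higher and 0 lower, with a median of 1.72. These still include Abcc4 and Nqo1, whose wild-type means also lay under an intensity of 100, so that part of this count follows from the filter. The lowest adjusted p were those of Cbr3, a carbonyl reductase, the efflux transporter Abcc4, the glutathione peroxidase Gpx2 and the sulfiredoxin Srxn1. Wild-type values of the first 3 lay under an intensity of 100, so that Keap1-HKO levels were at least 151-fold, 42.2-fold and 4.56-fold higher, and Srxn1 differed by 3.05. In Keap1-KD mice 3 of the 25 were called, all higher, namely Abcc4 (at least 1.05-fold), the quinone reductase Nqo1 (at least 1.15-fold) and Cbr3, which lay under an intensity of 100 in both genotypes. Abcc4 and Nqo1 passed the filter through Keap1-KD and Keap1-HKO mice alone, so that values above wild-type there follow from the filter. In Nrf2-null mice 3 were called lower, namely Abcc3 (−2.90), Aox1 (−2.77) and Gstm1 (−2.18). The differences of Entpd5, Pir and Fitm1 in Keap1-HKO mice, 1.59, 1.23 and 2.06, lay on both sides of the list's median.

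In lists of genes that share a function with the 5, few or none were called. Over all 5856 genes the main fit called 24 in Nrf2-null, 4 in Keap1-KD, 231 in Keap1-HKO and 84 in Keap1-HKO against Keap1-KD mice. At such shares few or no calls come in lists of this size, so that these counts do not set the lists apart. Of 15 measured lipid droplet genes 1 was called higher in Keap1-HKO mice, the phosphatidate phosphatase Lpin2 (0.70, limma adjusted p = 0.0268), and 0 in the other comparisons. Fitm2, the paralog of Fitm1, differed by 0.64 in Keap1-HKO mice (adjusted p = 0.0968) and by −0.29 in Nrf2-null mice (0.823), and its 3 arrays lay outside the wild-type range in both. Of 16 measured genes on a list of nucleotidases, other nucleotide enzymes and glycoprotein folding genes, drawn up around Entpd5, 0 were called in any comparison. Their median was −0.07 in Keap1-HKO mice. Of 6 measured genes on a list of glycosyltransferases and related genes, drawn up around B3galt1, 0 were called either. Of these, 4 of the 6 (B3galnt2, B4galt7, C1galt1 and C1galt1c1) had all 3 Nrf2-null arrays below wild-type (all genes 8.76%), and the median of the 6 was −0.47. Standard errors were 0.21 and 0.23 for B3galnt2 and B4galt7 but 1.03 and 0.50 for C1galt1 and C1galt1c1. Of 7 measured NF-kappaB and NFI factors 0 were called, and 4 of the 7 (Nfia, Nfib, Nfic and Nfix) had all 3 Keap1-HKO arrays below wild-type (all genes 14.9%), with differences of −0.85, −1.15, −0.31 and −0.47.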

How the data were processed

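Liver RNA of 12 mice was hybridised to Affymetrix mouse genome arrays, 1 array per mouse. The deposited table holds log2 values, made by the authors with gcRMA in R (background correction, quantile normalization over arrays, summary per probe set) and keeping probe sets above log2 of 100 in at least 1 genotype. Versions are not given in the sources used here. Quantile normalization gave array medians of 8.22 to 8.37, and intensities under 100 hold mainly background, so folds against such groups are bounds.

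Of 9622 probe sets, 8554 with 1 gene symbol were used, and the one with the highest mean stood for each of 5856 genes. Tests were run in limma 3.58.1 (R 4.3.3, Python 3.11.15), with lmFit and eBayes in 1 fit over 4 genotypes (8 residual and 2.19 prior degrees of freedom). Benjamini-Hochberg adjustment ran over all 5856 genes, calls are under 0.05, and intervals are 95%. The precision is limited by 3 mice per genotype. The fit was checked on simulated data. Named genes were the 5 members, Nfe2l2, Keap1, the genes most like each member by Pearson's r, up to 4 per list with the lowest adjusted p in Keap1-HKO mice, and listed genes called in other genotypes. Further neighbours, Fitm2 and the NF-kappaB and NFI factors were named after their values were seen. Members and lists were chosen with earlier results of these data known. Sequences and gene order came from RefSeq tables (GRCm38.p6), matched by Entrez ID for 5846 genes, and 1 promoter stretch is not reported here.

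Replicate numbers come from the labels. Deviations of same-numbered arrays correlated with r over 0.1 in 15 of 18 pairs. For replicates 1, 2 and 3, r was 0.79, 0.69 and 0.70 between Nrf2-null and Keap1-HKO arrays. It was 0.29, 0.21 and 0.15 between Nrf2-null and Keap1-KD, and 0.21, 0.17 and 0.11 between Keap1-KD and Keap1-HKO arrays. Deviations are taken from the mean of 3 arrays, so that 1 array far from the others shifts all 3. The labels do not say whether equal numbers mark a pair, and the main fit is unpaired. Each genotype paired with wild-type had an r under 0.1 for replicate 3 (0.07, −0.06 and −0.16). A replicate block was run as an alternative beside filters, a floor, other normalizations, other choices of probe set, variance models, array weights, Duncan's test named in the methods, and arrays left out. No 2 arrays of the same genotype were duplicates (r 0.799 to 0.992).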

Additional observations from a re-analysis of the deposited data

How the results depend on the processing

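Over 26 alternatives, 12 of which left out 1 array, 343 of 387 values of single genes kept their direction and their side of the threshold, 19 passed it newly, 17 no longer passed it and 8 turned direction. With the replicate block the counts of members called were 0 in Keap1-KD, 3 in Keap1-HKO and 1 in Keap1-HKO against Keap1-KD mice, and 0 neighbours of Nfe2l2, so that no call changed, and Entpd5 in the last comparison had a limma adjusted p of 0.0287. Over all genes it called 44, 3, 381 and 125 genes in Nrf2-null, Keap1-KD, Keap1-HKO and Keap1-HKO against Keap1-KD mice, against 24, 4, 231 and 84.

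Leaving out single arrays gave 0 to 0 members called in Keap1-KD mice, 2 to 4 in Keap1-HKO mice, 0 to 1 in Keap1-HKO against Keap1-KD mice and 0 to 0 neighbours. With array quality weights, whose estimate stopped before it converged, 4 members were called in Keap1-KD mice (9130409I23Rik, Entpd5 and Pir higher and B3galt1 lower), 4 in Keap1-HKO mice, 0 in Keap1-HKO against Keap1-KD mice and 10 neighbours. The lower value of B3galt1 follows from the filter, which it passed through wild-type mice alone. Weights estimated gene by gene, added after seeing the data, called 1 (Pir), 4, 3 (Fitm1, Entpd5 and Pir) and 2 (Gpd2 and Pdk1). Both kinds added 9130409I23Rik to the 3 members called in Keap1-HKO mice. These 2 kinds of weights called 1379 and 250 genes in Nrf2-null and 323 and 41 in Keap1-KD mice over all genes. They called 318 and 964 in Keap1-HKO mice and 109 and 415 in Keap1-HKO against Keap1-KD mice. Fits of only the 2 genotypes compared called 1 member in Keap1-HKO mice (Entpd5) and 0 in Keap1-HKO against Keap1-KD mice, and 49 and 21 over all genes. Duncan's test, unadjusted, called 2 in Keap1-KD mice, 3 in Keap1-HKO against Keap1-KD mice and 1 neighbour, and over all genes 148, 701 and 397 in Keap1-KD, Keap1-HKO against Keap1-KD and Nrf2-null mice. Dropping both arrays numbered 1 of Nrf2-null and Keap1-HKO mice called 2 members in Keap1-HKO against Keap1-KD mice (Fitm1 and Entpd5) and 1 neighbour (Gpd2). Over all genes it called 671 in Keap1-HKO, 336 in Keap1-HKO against Keap1-KD and 59 in Nrf2-null mice. Leaving out the 3 arrays with muscle transcripts turned the Keap1-HKO difference of 9130409I23Rik to −0.48 against wild-type and −1.31 against Keap1-KD mice. That of B3galt1 turned to −0.66 against Keap1-KD mice. That fit called 2255 genes in Keap1-HKO mice and rests on a lone array. As single arrays were left out, the Keap1-HKO against Keap1-KD difference of 9130409I23Rik ran from −0.32 to 0.76 and that of B3galt1 from −0.24 to 0.55. The cause of these changes was not tested. B3galt1 has no value with the filter at an intensity of 200. B3galt1 lay under or near an intensity of 100 in every genotype, which limits what its differences can show.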
